A study of Oryza sativa with 6 samples.

Results

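The loci described here gave less signal in chromium-treated than in water-treated rice roots on every array of the study, after the short exposure and again at 24 h. They were chosen from the deposited log2 ratios of treated over control signal. A locus was kept when its ratio, averaged over its probes, was at most -0.8 on each of the 6 arrays and when its control signal stood clear of background on all 6. Of 29689 loci in the table, 356 met the demand on the ratio, 57 of these had a dimmer control signal, and 299 loci remained. They made up 1.01% of all loci and 1.51% of the 19858 loci whose control signal was well above background on every array.

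The RNA came from roots of 6-day-old seedlings of the Oryza sativa cultivar TN-67, in bulk. Treated seedlings received hexavalent chromium, Cr(VI), at 50 µM, either for a short exposure, pooled from roots taken after 1 h and 3 h, or for 24 h, and control seedlings stood in water. Each exposure had 3 arrays, labelled as biological replicates, with treated RNA in Cy5 and control RNA in Cy3 every time. No dye was swapped, and a probe that favours one dye would carry that into all 6 of its ratios. In bulk roots, fewer cells of a type and less RNA per cell cannot be told apart.

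Chromate is an oxidising oxyanion that plant roots take up largely through sulfate transporters and reduce inside the cell. It damages membranes, proteins and DNA and slows root growth. A lower ratio on an array means that fewer transcripts of a locus were present relative to the rest of the RNA. Such a reading does not separate slower transcription from faster decay.

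The locus numbers give the chromosome and the order along it, but the files and the reference table do not pair them with gene names. Of the 299 loci, 0 matched the RefSeq table, by locus or by accession. The loci are therefore given by number and without a function, and the root label could not be checked against marker genes. No sequence was at hand for any of them.

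Across the arrays, the control channel was well above background at 68.8% to 83.2% of the spots and the treated channel at 73.7% to 81.0%, and 0 spots were saturated. The short arrays lay on slides 1 and 2 (replicate 1 on slide 1) and the 24 h arrays on slide 3, which means that the exposure cannot be told apart from the slide. Ratios of all tested genes correlated between the short arrays at 0.881 to 0.923 and between the 24 h arrays at 0.916 to 0.960. Genes are not independent replicates.

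Most of the 299 loci were more than 2-fold below control at both exposures. The mean deposited log2 ratio of a locus had a median of -1.27 after the short exposure, with quartiles of -1.55 and -1.04, and of -1.76 at 24 h, with quartiles of -2.53 and -1.31. The loci reached from -4.13 to -0.85 after the short exposure and from -6.32 to -0.84 at 24 h. At least 2-fold lower on average were 244 loci after the short exposure, 283 at 24 h and 235 at both. At least 4-fold lower were 31, 121 and 22. At 24 h, 55 loci were at least 8-fold and 29 at least 16-fold lower, against 4 and 1 after the short exposure. Many of these sizes were not measured, since the treated signal lay at background on an array. It was above background on all 3 arrays of the exposure in 85 of the 121 loci, 30 of the 55 and 12 of the 29 at 24 h, and in 16 of the 31, 0 of the 4 and 0 of the 1 after the short exposure. On the loess scale described below, 56, 17 and 3 loci reached those folds at 24 h, and 4, 0 and 0 after the short exposure. The median SD of a locus was 0.17 over the short arrays and 0.22 over the 24 h arrays (n = 3 each), in values that the rule had required to lie at or below -0.8.

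**Figure D1:**
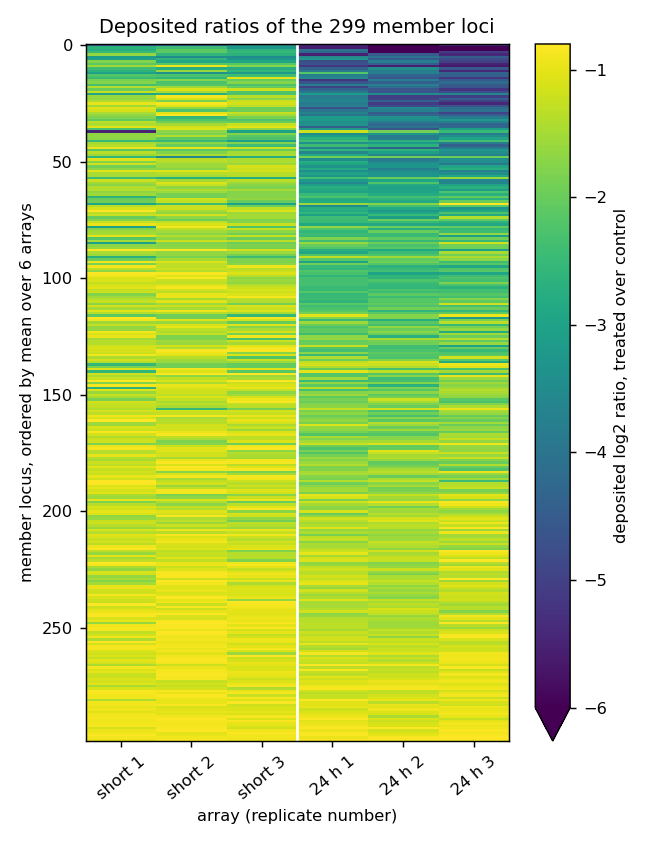
Each row is 1 of the 299 loci, ordered by its mean over the 6 arrays, and each column is 1 array; the colour gives the deposited log2 ratio of treated over control. The upper rows turn darker in the 3 columns for 24 h, where 121 loci were at least 4-fold lower on average, against 31 in the short columns.

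The loci do not form a group set off from the rest, and the threshold runs through a continuous range. Just inside it lay Os01g0921300, Os01g0229000 and Os03g0259100, whose highest values were -0.8003, -0.8007 and -0.8015. Just outside lay Os11g0655600, Os12g0498900 and Os06g0622900, with highest values of -0.7997, -0.7994 and -0.7985. A further 208 loci met the threshold on 5 of the 6 arrays while their mean at both exposures met it. These missed it on short replicate 2 in 78 cases, on short replicate 1 in 47, on 24 h replicate 3 in 43, on short replicate 3 in 33 and on the other 24 h arrays in 7 together, 6 on replicate 2 and 1 on replicate 1.

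The size of the falls depended on how the spots were processed. The deposited ratios rest on Agilent's background-subtracted signals. The same spots were also normalized from their median brightness, with a normexp background correction, an offset of 50 and loess, here called loess ratios, which pulls dim spots toward 0. On that scale 296 of the 299 loci could be tested, since 3 had too few unflagged values of their brightest probe, and their medians were -0.85 after the short exposure and -1.22 at 24 h. The medians over all 23496 genes tested were 0.018 and 0.017. All 296 were called lower at both exposures (limma, adjusted p under 0.05). Of all genes tested, 24.1% were called lower after the short exposure and 30.9% at 24 h. The loess ratios tested here come from the same spots as the deposited ratios that chose the loci. These counts therefore describe the choice and support nothing. With loess ratios in place of the deposited ones, 96 loci would have met the rule, 94 of them among the 299.

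In some loci the treated signal fell to the background, which leaves a bound in place of a fold. The treated channel was well above background on all 6 arrays for 242 of the 299 loci. At 24 h it was above background on all 3 arrays for 257 loci, on 1 or 2 for 29 and on none for 13. After the short exposure those counts were 262, 34 and 3. For the 13 loci without a treated signal at 24 h, the control was at least 1.39-fold to at least 6.13-fold brighter. These bounds set the mean control level against the dimmest signal that still counted as above background on each array, or the spot's own if that was higher, in channel values after loess and Aquantile normalization. In 14 of the 16 bounds (13 at 24 h and 3 after the short exposure) the spot's own signal was the higher, and the bound is then the loess fold itself, to within 0.001, and no separate measurement. Without swapped dyes they are open to dye bias.

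The 10 loci with the lowest mean ratio show both the size of the falls and this limit. The lowest was Os09g0329200 on chromosome 9, with deposited ratios of -4.56, -4.33 and -3.51 after the short exposure and of -5.29, -6.32 and -5.25 at 24 h. All 6 values lay far below the threshold, but no array showed a treated signal well above background. Its control was at least 2.48-fold brighter than the treated signal after the short exposure and at least 3.99-fold at 24 h. Its loess ratios were -1.31 and -1.99 (limma adjusted p of the difference = 0.054). Between the exposures its treated signal moved by -0.09 and its control signal by 0.60 on the log2 scale, in channel values.

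Os07g0281700 on chromosome 7 had ratios of -2.67, -2.44 and -3.24 after the short exposure, with the treated signal above background, and of -5.58, -6.78 and -6.60 at 24 h, where it no longer was. At 24 h the control was at least 6.13-fold brighter. Os07g0120000, also on chromosome 7, went from -1.65, -2.58 and -2.67 to -5.54, -4.50 and -5.41, and Os09g0349600 on chromosome 9 from -1.53, -0.93 and -1.75 to -5.18, -5.57 and -5.64. Neither had a treated signal above background at 24 h, and their bounds were at least 4.15-fold and at least 5.40-fold. In these 3 loci the deposited ratios of the exposures did not overlap, while the size of the fall at 24 h is not fixed. The loess difference of Os07g0120000, -0.65 (SE 0.294), did not pass (limma adjusted p = 0.12). It passed with an offset of 10, with median centring and with Agilent's processed signals (limma adjusted p = 0.018, 0.044 and 0.0038).

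Os10g0165300 on chromosome 10 had -2.72, -2.12 and -2.63 after the short exposure and -4.05, -6.70 and -7.24 at 24 h, and Os02g0208500 on chromosome 2 had -2.48, -2.12 and -2.53, then -4.25, -6.69 and -5.09. Each had a treated signal above background on 1 of the 3 24 h arrays, replicate values at 24 h spread widely, and both exposures stayed apart. Os07g0201500 was at -3.11, -3.49 and -3.47, then at -3.56, -4.02 and -4.47, with 2 of 3 arrays above background at either exposure. Os01g0650100 on chromosome 1 was at -3.03, -2.59 and -3.26, then at -3.29, -4.53 and -4.77, with 2 and 1 arrays above background. In the deposited ratios these last 2 loci changed less between the exposures than the 2 before them. Their loess differences were -0.68 and -0.56 (limma adjusted p = 0.0032 and 0.0041). In channel values, the treated signal moved by -0.09 and -0.30 on the log2 scale and the control signal by 0.60 and 0.26. With treated signals at background on some arrays, the size of the later change is not fixed.

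Of the 10 loci, 2 kept a treated signal well above background on every array. Os10g0167900 on chromosome 10 had -1.78, -2.87 and -2.89 after the short exposure and -4.77, -3.78 and -4.97 at 24 h. Os09g0353400 on chromosome 9 had -2.12, -2.17 and -2.17, then -4.65, -4.44 and -5.48. In both, every 24 h value lay below every short value, and the loess ratio differed by -1.42 and -1.74 (SE 0.306 and 0.155; limma adjusted p = 0.0072 and 0.00011).

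**Figure D2:**
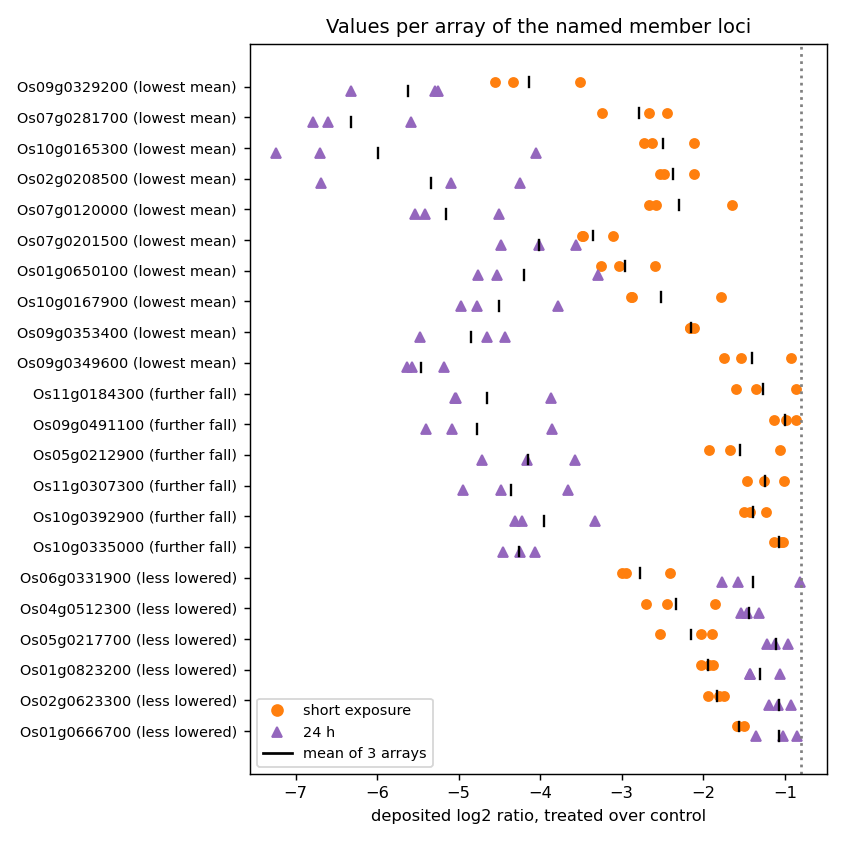
Deposited log2 ratios of the 10 loci with the lowest mean and of the 6 loci with the largest difference between exposures in each direction, with circles for the 3 short arrays, triangles for the 3 24 h arrays, bars for the means and a dotted line at -0.8. The 24 h triangles lie left of the short circles at the loci that fell further, with no overlap in any of the 10 lowest loci, and right of them at the 6 loci that eased.

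The rule asked for a fall at both exposures and set no order between them, so the difference between exposures was tested. The reservation is that the choice had used the same spots at both exposures. Between the short exposure and 24 h, 160 of the 296 tested loci fell further, 6 came back part of the way and 130 passed in neither direction (limma on loess ratios, adjusted p under 0.05). These are 54.1% and 2.03% of the tested loci, beside 22.3% of all genes tested with a lower call for this difference and 16.4% with a higher one. The median difference was -0.39 over the loci and -0.03 over all genes. In the deposited ratios, all 24 h values lay below all short values in 175 of the 299 loci and above them in 19, which is 58.5% and 6.35%, beside 27.7% and 29.1% of the loci with control signal above background. A further fall was thus called more often than an easing.

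These counts moved with the scaling. Median centring in place of loess, which moved the median difference of all genes to -0.16, gave 176 further and 2 eased, and ratios of Agilent's processed signals gave 147 and 11. The share of all genes called lower and higher was then 26.9% and 8.05% with median centring, and 18.2% and 17.7% with the processed signals.

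For comparison, the same rule turned the other way, with a ratio of at least 0.8 on each array, held 507 loci. Of the 489 tested, 150 rose further by 24 h (30.7%) and 104 came back part of the way (21.3%). The difference between the lowered and the raised loci was not tested.

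**Figure D3:**
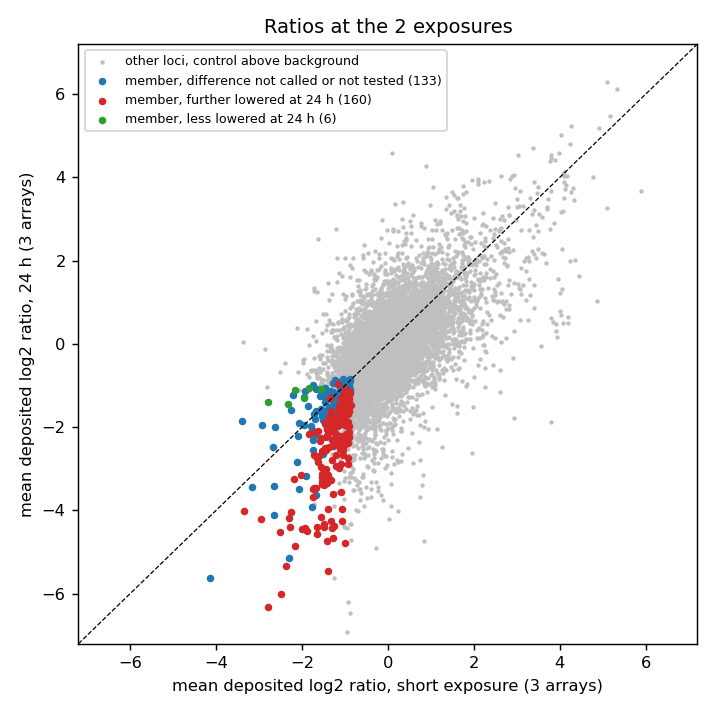
Mean deposited log2 ratio after the short exposure (x axis) and at 24 h (y axis) for loci with control signal above background, in grey, and the 299 chosen loci coloured by the outcome of the difference test. Of the coloured points 160 are called further lowered at 24 h, 6 are called less lowered, and the broken line marks equal ratios.

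The 160 loci that fell further had loess differences from -3.66 to -0.24 on the log2 scale, with a median of -0.75. At least 2-fold further were 53 of them, beside 3.77% of all genes tested, and 46 of the 53 kept a treated signal above background on every 24 h array. With Agilent's processed signals the count at 2-fold was 91. The 6 largest further falls all had a treated signal above background on all 6 arrays, so their sizes are measured.

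Os09g0491100 on chromosome 9 stood first, with deposited ratios of -0.99, -0.86 and -1.13 after the short exposure and of -3.86, -5.08 and -5.41 at 24 h. The loess difference was -3.66 (SE 0.319, limma adjusted p = 0.00010). It was read by 4 probes, whose means lay between -1.03 and -0.97 after the short exposure and between -4.82 and -4.71 at 24 h. The probes gave the same picture, and the exposures were clearly apart. When the pair of short arrays on slide 2 was left out, its early fall, a loess ratio of -1.12, no longer passed (limma adjusted p = 0.086).

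Os11g0184300 on chromosome 11 went from -1.60, -0.86 and -1.35 to -3.87, -5.05 and -5.04, with a loess difference of -3.24 (SE 0.289). Os11g0307300, on the same chromosome, went from -1.47, -1.01 and -1.26 to -3.67, -4.48 and -4.94 (loess difference -2.90, SE 0.224). Os10g0335000 on chromosome 10 had -1.05, -1.13 and -1.02, then -4.46, -4.07 and -4.25 (loess difference -2.62, SE 0.113). These 3 loci lay on average under 4-fold below control early and at least 16-fold below it at 24 h in the deposited ratios, with no overlap between exposures.

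Os10g0392900, also on chromosome 10, went from -1.43, -1.50 and -1.23 to -3.33, -4.22 and -4.31 (loess difference -2.47, SE 0.206). Os05g0212900 on chromosome 5 went from -1.06, -1.67 and -1.93 to -4.71, -3.57 and -4.16 (loess difference -2.44, SE 0.277). The limma adjusted p of these 5 differences lay between 9.5e-06 and 0.00034. In channel values, the treated signal of the 6 loci moved by -3.39 to -2.15 on the log2 scale between the exposures, while the control signal moved by -0.74 to 0.47, so the treated channel carried most of each difference.

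The 6 loci that came back part of the way stayed below control on every 24 h array, as the rule required of every locus. A locus that came back above -0.8 on any 24 h array was left out by it. Os06g0331900 on chromosome 6 had -2.94, -2.41 and -2.99 after the short exposure and -1.58, -1.77 and -0.81 at 24 h, with a loess difference of 0.92 (SE 0.182, limma adjusted p = 0.0048). Os05g0217700 on chromosome 5 went from -2.53, -1.89 and -2.03 to -1.13, -1.22 and -0.96 (loess difference 0.89, SE 0.183, adjusted p = 0.0058), and its 3 probes ran alike, from -2.18 to -2.11 and then from -1.18 to -1.02. Os04g0512300 on chromosome 4 went from -2.70, -1.86 and -2.44 to -1.31, -1.54 and -1.47 (loess difference 0.73, SE 0.184, adjusted p = 0.015). In these 3 loci every 24 h value lay above every short value.

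Os02g0623300 on chromosome 2 went from -1.81, -1.75 and -1.94 to -1.19, -1.09 and -0.93 (loess difference 0.59, SE 0.100, adjusted p = 0.0024). Os01g0823200 on chromosome 1 went from -1.88, -1.93 and -2.03 to -1.43, -1.43 and -1.06 (0.47, SE 0.116, adjusted p = 0.013). Os01g0666700 went from -1.58, -1.51 and -1.59 to -1.02, -1.35 and -0.85 (0.36, SE 0.122, adjusted p = 0.047). The exposures stayed apart in all 3.

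These calls were less stable than those of the deeper falls. That of Os01g0666700 was lost on leaving out any short array or 24 h replicate 1 or 3 (adjusted p = 0.078 to 0.13), and that of Os04g0512300 without 24 h replicate 1 (adjusted p = 0.052). With median centring 4 of the 6 were lost, those of Os04g0512300, Os02g0623300, Os01g0823200 and Os01g0666700 (adjusted p = 0.11, 0.11, 0.27 and 0.56). Leaving out the slide 2 arrays ended the calls of Os06g0331900, Os01g0823200 and Os01g0666700 (adjusted p = 0.054, 0.10 and 0.31), with loess differences of 0.91, 0.50 and 0.30 over the 4 arrays left. In all 6 loci the control signal was also somewhat higher on the 24 h arrays, by 0.06 to 0.75 on the log2 scale, and none of these control differences passed (limma adjusted p = 0.061 to 0.85).

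For the 130 loci that passed in neither direction, a missing call does not show equal ratios. The 95% interval of the loess difference lay within 2-fold either way for 125 of them. Loess ratios pull dim spots toward 0, so where the treated signal lay at background this interval does not limit the change. Os05g0428700, without a treated signal above background at 24 h, had mean deposited ratios of -1.68 and -3.64 and a loess difference of -0.43. Os10g0177300, also without one at 24 h, had -2.64 and -4.11 and a loess difference of -0.17.

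Some of the loci were neighbours. Loci whose numbers lay within 2000 of each other on a chromosome formed 45 stretches, 40 of 2 and 5 of 3, with 95 of the 299 loci. A stretch could hold up to 15 array loci, and the count that the density of loci alone would give was not computed. Among the loci with control signal above background, 598 positions lay next to one of the 299, and 32 of them (5.35%) were held by another one, beside 1.51% of all such loci. Counted once each, the neighbours outside the 299 were 560 loci. Their median deposited ratios were -0.15 after the short exposure and -0.10 at 24 h, close to the -0.12 and -0.06 of all loci with control signal above background. Most neighbours thus did not share the fall.

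In 11 stretches every locus of the array was one of the 299, and these held 23 loci, of which 17 fell further by 24 h and 1 came back, beside the 54.1% of the tested loci and 22.3% of all genes that were called lower for this difference. Neighbours of alike sequence can bind each other's probes, and without sequences their signals cannot be told apart here. Of the 299 loci, 3 shared a probe accession with another locus, and 1 such accession was shared by loci that both belonged to the 299.

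On chromosome 11 the pair Os11g0184200 and Os11g0184300 ran alike in the deposited ratios. The former had -1.97, -1.07 and -1.20 after the short exposure and -4.32, -4.63 and -5.21 at 24 h, next to the values of Os11g0184300 given above, and its loess difference was -1.25 (SE 0.134), with the treated signal above background on 1 of the 3 24 h arrays. Os11g0306400, the neighbour of Os11g0307300, had -1.26, -1.49 and -2.24, then -3.84, -4.63 and -4.76, with a loess difference of -2.43 (SE 0.228). For Os11g0184200 the size of the fall at 24 h is therefore not fixed (loess ratio -2.19), while the other 3 loci of these pairs were above background on every array.

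Another pair of this chromosome, Os11g0270000 and Os11g0270500, differed in what moved. Os11g0270000 had -1.23, -1.12 and -1.04, then -1.98, -2.32 and -2.48, and Os11g0270500 had -1.48, -1.52 and -1.39, then -3.29, -3.28 and -2.90. The loess differences were -1.02 and -1.37 (SE 0.100 and 0.102). Here the control signal was higher on the 24 h arrays, by 0.82 and 1.08 (SE 0.126 and 0.158; limma adjusted p = 0.024 and 0.021), whereas the treated signal moved by -0.27 and -0.25. The further fall of the ratio in this pair therefore came with a brighter control, and these control calls shared the instability given below.

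On chromosome 9, Os09g0455900 and Os09g0456100 stayed close to each other at both exposures. Os09g0455900 had -0.82, -1.09 and -0.81, then -2.46, -2.34 and -1.91, and Os09g0456100 had -0.87, -0.96 and -1.10, then -2.09, -2.66 and -1.72. Their loess differences were -0.89 and -0.86 (SE 0.099 and 0.080). The exposures did not overlap in either locus.

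On chromosome 10, Os10g0552100 had -0.92, -1.44 and -1.13, then -2.11, -1.71 and -2.78, and Os10g0552200 had -1.34, -1.78 and -1.48, then -3.64, -3.03 and -3.43. Both fell further, with loess differences of -0.91 and -1.47 (SE 0.195 and 0.163). Of Os10g0498000 and Os10g0498100, side by side on the same chromosome, the former was at -0.98, -1.02 and -1.18, then -1.46, -1.69 and -1.06 (loess difference -0.27, limma adjusted p = 0.11, and -0.30 with adjusted p = 0.029 without background correction), while the latter went from -1.62, -1.12 and -1.70 to -3.74, -4.98 and -4.45 (-1.33, adjusted p = 0.00016). The difference between these neighbours was not tested, and Os10g0498100 had a treated signal above background on 1 of the 3 24 h arrays.

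The pair Os05g0191700 and Os05g0192100 on chromosome 5 cannot be compared in size. Os05g0191700 had -1.91, -1.56 and -1.14, then -3.31, -3.31 and -2.96, with no treated signal above background at 24 h (control at least 2.32-fold brighter). Os05g0192100 had -2.21, -2.29 and -2.40, then -3.77, -4.36 and -4.39, above background throughout, with a loess difference of -1.86 (SE 0.151). Further along that chromosome, Os05g0217000, beside the easing Os05g0217700, had -1.07, -1.61 and -1.17, then -1.70, -1.49 and -1.33 (loess difference -0.23, limma adjusted p = 0.26). One of these 2 eased, and the other was not called with the main settings. Os05g0217000 was called as a further fall with median centring (-0.52, limma adjusted p = 0.014). It was also called without short replicate 2 (-0.37, limma adjusted p = 0.048).

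The only stretch of 3 consecutive loci lay on chromosome 1. Os01g0649900 had -1.52, -1.21 and -1.35, then -2.39, -2.51 and -2.52 (loess difference -0.92, SE 0.088), and the third, Os01g0650100, is described above. The middle locus, Os01g0650000, had -2.01, -1.69 and -1.51, then -2.42, -3.10 and -1.39, but its 2 probes disagreed, with mean ratios of -3.34 and -0.70. Its brighter probe gave a loess difference of 0.23 (limma adjusted p = 0.16) and the mean of both gave -0.23, so no direction can be given.

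In the 2 stretches left, weak treated signals limited the values. Os03g0580700 and Os03g0580800 on chromosome 3 had mean ratios of -2.08 and -1.92 after the short exposure and of -3.48 and -4.42 at 24 h (SD 0.41, 0.31, 0.35 and 0.25, n = 3), with the treated signal above background on 1 and 0 of the 24 h arrays. The loess difference of Os03g0580700, -0.36, did not pass (limma adjusted p = 0.14). It passed without background correction and with an offset of 10 (limma adjusted p = 0.0496 and 0.025). It also passed with Agilent's processed signals and without short replicate 2 (limma adjusted p = 0.011 and 0.0090). The call of a further fall for Os03g0580800 (-0.46, limma adjusted p = 0.044) was lost on leaving out either short replicate 1 or 3 or 24 h replicate 1 or 2 (adjusted p = 0.062 to 0.14). Os09g0329700, the neighbour of Os09g0329200, had -1.84, -1.31 and -1.72, then -1.95, -2.19 and -2.16 (loess difference -0.58, limma adjusted p = 0.0086). Its treated signal was above background on every array and its loess ratios were -1.36 and -1.94, whereas the fall of Os09g0329200 was not measured.

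**Figure D4:**
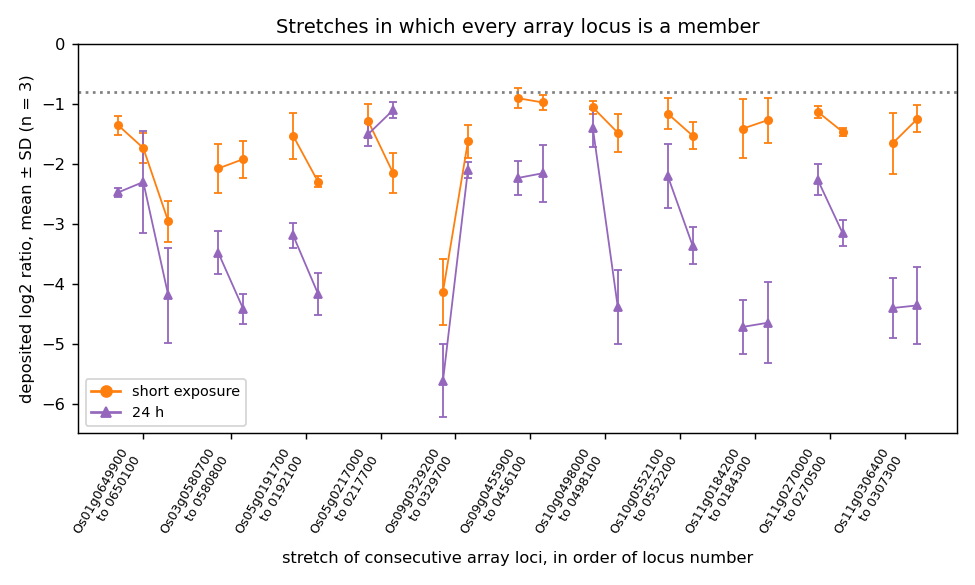
Mean deposited log2 ratio with SD (n = 3) of the loci in the 11 stretches in which every array locus was one of the 299, in order of locus number, for the short exposure (circles) and 24 h (triangles); the dotted line marks -0.8. On chromosome 11, Os11g0184200 and Os11g0184300 lie nearly level, as do Os11g0306400 and Os11g0307300, while Os09g0329200 and, at 24 h, Os10g0498100 lie below their neighbours in deposited ratios that rest on treated signals at background on some or all arrays.

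By chromosome, the loci made up 0.926% (chromosome 8, 12 loci) to 2.36% (chromosome 10, 25 loci) of those with control signal above background. Chromosomes 9, 10 and 11 had the largest shares, at 2.08%, 2.36% and 2.11%, and chromosomes 6 and 8 the smallest, at 0.931% and 0.926%. Chromosome 1 held the most loci, 48, and 26 of its loci lay in stretches, while chromosomes 6 and 8 had 0 in stretches. These shares are descriptions of position and were not tested.

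**Figure D5:**
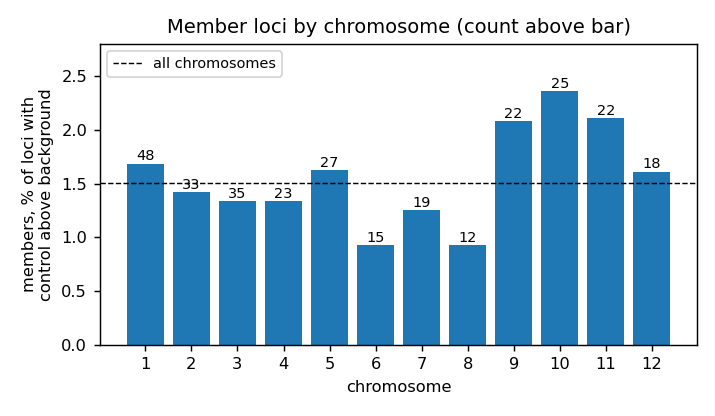
Share of the loci with control signal above background on each chromosome that belong to the 299 (bars, percent), with their number above each bar and a broken line at the 1.51% of all chromosomes. The bars of chromosomes 9, 10 and 11 are above 2%, and those of chromosomes 6 and 8 are below 1%.

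The control roots enter every ratio, so their Cy3 signal was compared between exposures as well. Of the 296 loci, 13 differed (limma, adjusted p under 0.05), 7 higher and 6 lower on the 24 h arrays, which is 4.39%, beside 3.52% of all genes tested (2.86% higher and 0.655% lower). Of the 160 loci that fell further, 6 had a higher and 4 a lower control by this test, and the median control difference of the 160 was 0.07. The control difference was above 0 in 91 of the 160 and below 0 in 69, and in 20 it was above 0.5. Among the 53 that fell further by at least 2-fold, 4 had a called control difference and 10 had a control more than 0.5 higher. The count of 13 changed with each array left out. It was 0 when short replicate 3, 24 h replicate 1 or 24 h replicate 2 was dropped. It was 5 without short replicate 2, 7 without 24 h replicate 3, 63 without short replicate 1 and 0 when both slide 2 arrays were dropped. At an unadjusted p under 0.05, 99 of the 296 passed with all arrays, and 57 to 79 where the adjusted count of a single left-out array was 0.

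Several probes of a locus give a check that a bias of a single probe would fail. Of the 299 loci, 62 had more than 1 probe. The probe with the highest mean over the arrays was below 0 in all 62 and at or below -0.8 in 54, and in 31 every probe met the threshold on every array. The median spread between the means of a locus' probes was 0.16, and the largest was the 2.63 of Os01g0650000. The rule used the average of these probes, so they are not independent of it. The other 237 loci had a single probe, and a dye bias in them was not tested. A bias that is the same on all arrays cancels in the difference between exposures.

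Of the 299 loci, 63.9% had a probe designed on an mRNA, as the probe names give it, beside 74.3% of the loci with control signal above background.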

How the data were processed

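Two-colour Agilent arrays of rice roots were read. Per the file headers, Agilent Feature Extraction 10.7.1.1 made the deposited spot intensity values, both median brightness and processed signals, and the flags for spots above background come from the same files. The deposited table gives log2 ratios that matched processed red over processed green within 0.01 for over 99.9% of probes. How the authors filtered probes, and a genome build, are not given in the sources used here.

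The members and lists were chosen with earlier results of these data known. Loess ratios came from limma 3.58.1 in R 4.3.3 (normexp, offset 50, loess; control and outlier spots at weight 0, outliers then left out, brightest probe per locus). Genes with either channel above background on 3 or more arrays, and 2 values per exposure, were tested in 1 model over the 6 arrays, with Benjamini-Hochberg adjustment over all 23496 genes. Cy3 values were quantile-normalized and tested the same way. The number of arrays limits the precision.

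Named were the 10 loci with the lowest mean ratio, the 6 with the largest called difference in each direction, the 3 nearest the threshold on each side, and, of neighbouring loci, those in stretches that hold no other locus. That last narrowing, and the loci of the other observations, were chosen after values were seen. Groups by product name and promoter motifs could not be applied without names and sequences. On simulated arrays, 199 of 200 changed loci and 6 unchanged ones were called for the 24 h minus short difference among 24354 genes. These counts hold for those arrays alone, and the error rate of the calls on the rice arrays was not tested.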

Additional observations from a re-analysis of the deposited data

Results flagged for a closer look

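For 34 of the loci named above, limma's test of the difference between exposures gave an adjusted p under 0.05. No slide held both exposures, so the exposure cannot be told apart from the slide in any of them. Sizes are 24 h minus short on the loess log2 scale.

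The further falls were largest in Os09g0491100 (-3.66), Os11g0184300 (-3.24), Os11g0307300 (-2.90), Os10g0335000 (-2.62), Os10g0392900 (-2.47), Os05g0212900 (-2.44) and Os11g0306400 (-2.43). They were intermediate in Os05g0192100 (-1.86), Os10g0165300 (-1.74), Os09g0353400 (-1.74), Os09g0349600 (-1.48), Os10g0552200 (-1.47), Os10g0167900 (-1.42), Os11g0270500 (-1.37), Os10g0498100 (-1.33), Os11g0184200 (-1.25), Os02g0208500 (-1.02) and Os11g0270000 (-1.02). They were under 2-fold in Os01g0649900 (-0.92), Os10g0552100 (-0.91), Os09g0455900 (-0.89), Os09g0456100 (-0.86), Os07g0281700 (-0.76), Os07g0201500 (-0.68), Os09g0329700 (-0.58), Os01g0650100 (-0.56), Os03g0580800 (-0.46) and Os05g0191700 (-0.43). With Agilent's processed signals the calls of Os07g0201500, Os01g0650100 and Os09g0329700 were lost (limma adjusted p = 0.087, 0.062 and 0.062). Median centring ended those of Os03g0580800 and Os05g0191700 (limma adjusted p = 0.14 and 0.070). That of Os05g0191700 was also lost without short replicate 3 (limma adjusted p = 0.051). Without the short arrays on slide 2, the differences of Os09g0329700, Os05g0191700 and Os03g0580800 were -0.37, -0.42 and -0.54, with short replicate 1 as the only short array. For Os09g0349600, Os07g0281700, Os03g0580800 and Os05g0191700 no 24 h array had a treated signal well above background, so the size of the difference is not fixed. Nor is it fixed for Os10g0165300, Os02g0208500, Os10g0498100, Os11g0184200 and Os01g0650100, with such a signal on 1 of the 3 24 h arrays, or for Os07g0201500, with 2.

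The ratio eased in Os06g0331900 (0.92), Os05g0217700 (0.89), Os04g0512300 (0.73), Os02g0623300 (0.59), Os01g0823200 (0.47) and Os01g0666700 (0.36).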

How the results depend on the processing

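The rule gave 299 loci, 150 with a threshold of -1, 426 with -0.7, 96 with loess ratios and 303 to 394 on leaving out 1 array. Further falls numbered 160 with all arrays, 137 to 166 without any 1 array and 109 without the short arrays on slide 2, an alternative chosen after seeing the data. The 6 loci that eased became 2 with median centring and 11 with Agilent's processed signals, and 4 to 9 without 1 array. The 13 loci with a control difference became 28 with median scaling, 0 with Agilent's processed green signal, 0 with the slide as a random block (correlation 0.38), 8 with the replicate block, 0 to 63 without 1 array and 0 without the short arrays on slide 2. Same-numbered arrays did not deviate together (correlations -0.24, -0.12 and -0.10). With 3 arrays per exposure this cannot show whether the numbers pair the samples. With the replicate block 150 fell further and 5 eased. Differences that changed sign had not passed: Os03g0259100 (-0.10 with median centring, -0.047 to 0.233 on leaving out 1 array), Os01g0650000 (-0.026 with median centring, -0.23 with the mean over probes) and Os01g0921300 (0.074 with Agilent's processed signals). The difference of Os09g0329200 passed under 9 other settings (-1.49 to -0.67, adjusted p = 0.0034 to 0.037). Among all single-locus values under the alternatives, 1967 kept direction and call, 33 lost the call, 20 gained it and 5 changed sign. These counts pool the differences between exposures with the ratios against control, whose direction the choice had set. Most of the changes lay in the differences, so the pooled counts do not show how stable the differences were. Signals at background set what could be measured.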

Other observations

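Some loci between the members of a stretch fell without meeting the rule. Os01g0550800, between Os01g0550600 and Os01g0551800 on chromosome 1, had deposited log2 ratios of -1.19, -0.50 and -0.92 after the short exposure and of -4.83, -7.09 and -7.47 at 24 h, and missed the threshold on short replicate 2 alone. Its neighbour Os01g0551000 had -1.18, -2.15 and -1.40, then -1.21, -0.96 and -0.77, and missed it on 24 h replicate 3 alone. The treated signal of Os01g0551000 was above background on 1 of the 3 short arrays, so the size of its early fall is not fixed. On chromosome 7, Os07g0643400 and Os07g0643700 were at -0.30 ± 0.47 and -0.40 ± 0.12 after the short exposure and at -2.16 ± 0.27 and -1.99 ± 0.10 at 24 h (SD, n = 3).

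Among the 299 loci, the lowest single value after the short exposure belonged to Os11g0134900 on chromosome 11, at -5.48 on replicate 1. Its other short arrays gave -1.70 and -2.99, and the 24 h arrays gave -1.20, -1.89 and -2.47. Its treated signal was above background on 2 of the 3 short arrays and on all 3 24 h arrays.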
